A study of Homo sapiens with 7 samples.

Results

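Tight junctions and desmosomes are the contacts that seal epithelial cells together and hold them to one another. The genes described here are 44 genes of these contacts, namely 20 claudins, 9 other tight junction genes and 15 desmosome genes, chosen by name. Of the 44, 42 were found among the 20423 genes of the expression file. The claudins CLDN8 and CLDN17 were not analysed here. The values come from 1 library of polyA RNA from HCT116 cells, a line established from a human colon carcinoma, in a study that otherwise mapped piggyBac transposon insertions and SP1 binding in the same line. The labels give no genotype change, treatment or time for the RNA library. They describe growth in McCoy 5A medium with serum, and the same text mentions the drug G418 for the transposon cells without saying whether it was given to the cells used for RNA. With 1 library there is no replicate, so every value below is a description and no test was possible.

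In a tight junction, claudins span the membrane and set which ions pass between cells, occludin and its MARVEL relatives lie beside them, and the zonula occludens proteins tie them to actin from inside. In a desmosome, the cadherins of the desmoglein and desmocollin families join neighbouring cells, the armadillo proteins plakoglobin and plakophilin bind their tails, and desmoplakin links these to keratin filaments. Simple epithelia such as the gut lining and stratified epithelia such as skin are known to use different members of these families.

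Levels are given as RPKM, reads per kilobase of transcript scaled to the mapped reads of the library, a per-length scale on which genes can be set side by side. The deposited file gives no depth. Low values of 20 short olfactory receptor genes, which lack introns in their coding part, were used to estimate it. For 12 of these genes RPKM times length came within 0.5% of a whole multiple of 1 step, and for 15 within 0.5% of a multiple of 0.5 steps. The step is the commonest such product among these 20 genes, held by 4 of them, which match by definition. If that step is 1 read, 1 RPKM stands for about 23.3 reads per kilobase of transcript in this library, an estimate that also rests on GRCh38 gene lengths. Exact zeros need care, because genes that dividing cells use, such as TAF9 of the general transcription machinery and the checkpoint gene RAD17, were also listed at 0.

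The library carried keratins and adhesion markers of simple epithelium, while some markers of mature colon cells were near 0. KRT19, KRT8 and KRT18 stood at 543, 378 and 268 RPKM, and the adhesion molecule EPCAM at 79.5 RPKM. The intestinal regulator CDX2 stood at 9.19 RPKM, while the markers KRT20, VIL1 and CDX1 lay at 0.238, 0.0313 and 0.0242 RPKM, so 6 of 9 colon epithelial markers (66.7%) reached 1 RPKM, against 57.0% of all genes. Of the markers of other cell types, none of 5 endothelial and none of 5 leukocyte genes reached 1 RPKM, set against the same 57.0%. The keratinocyte list had 1 of 5 (KRT10, 4.39 RPKM), with KRT5 and KRT14 at 0.0526 and 0.0578 RPKM and TP63 listed at 0. The fibroblast list had 1 of 5 (COL1A1, 14.5 RPKM), with COL1A2 and COL3A1 at 0.0277 and 0.00781 RPKM and DCN listed at 0.

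Junction genes ranged from a listed 0 to 198 RPKM, and 3 of them carried most of the summed RNA. CLDN7, CLDN4 and the plakoglobin gene JUP held 63.9% of the summed RPKM of all 42 genes. At least 1 RPKM was reached by 23 of the 42 genes (54.8%), against 57.0% of all genes in the file. At least 10 RPKM was reached by 14 (33.3%), against 24.4% of all genes. Listed at 0 were 4 junction genes (9.52%), against 16.6% of all genes. The junction genes as a whole therefore had close to the background share of expressed genes, and their median of 1.54 RPKM stood beside 1.91 RPKM over all genes. The 23 genes at or above 1 RPKM had a median of 14.9 RPKM and the 19 below it a median of 0.0249 RPKM. The genes nearest the line were PARD6B (1.26), CLDN23 (1.49) and OCLN (1.59 RPKM) above it, and DSC3 (0.828), CLDN20 (0.675) and CLDN2 (0.661 RPKM) below it.

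**Figure D1:**
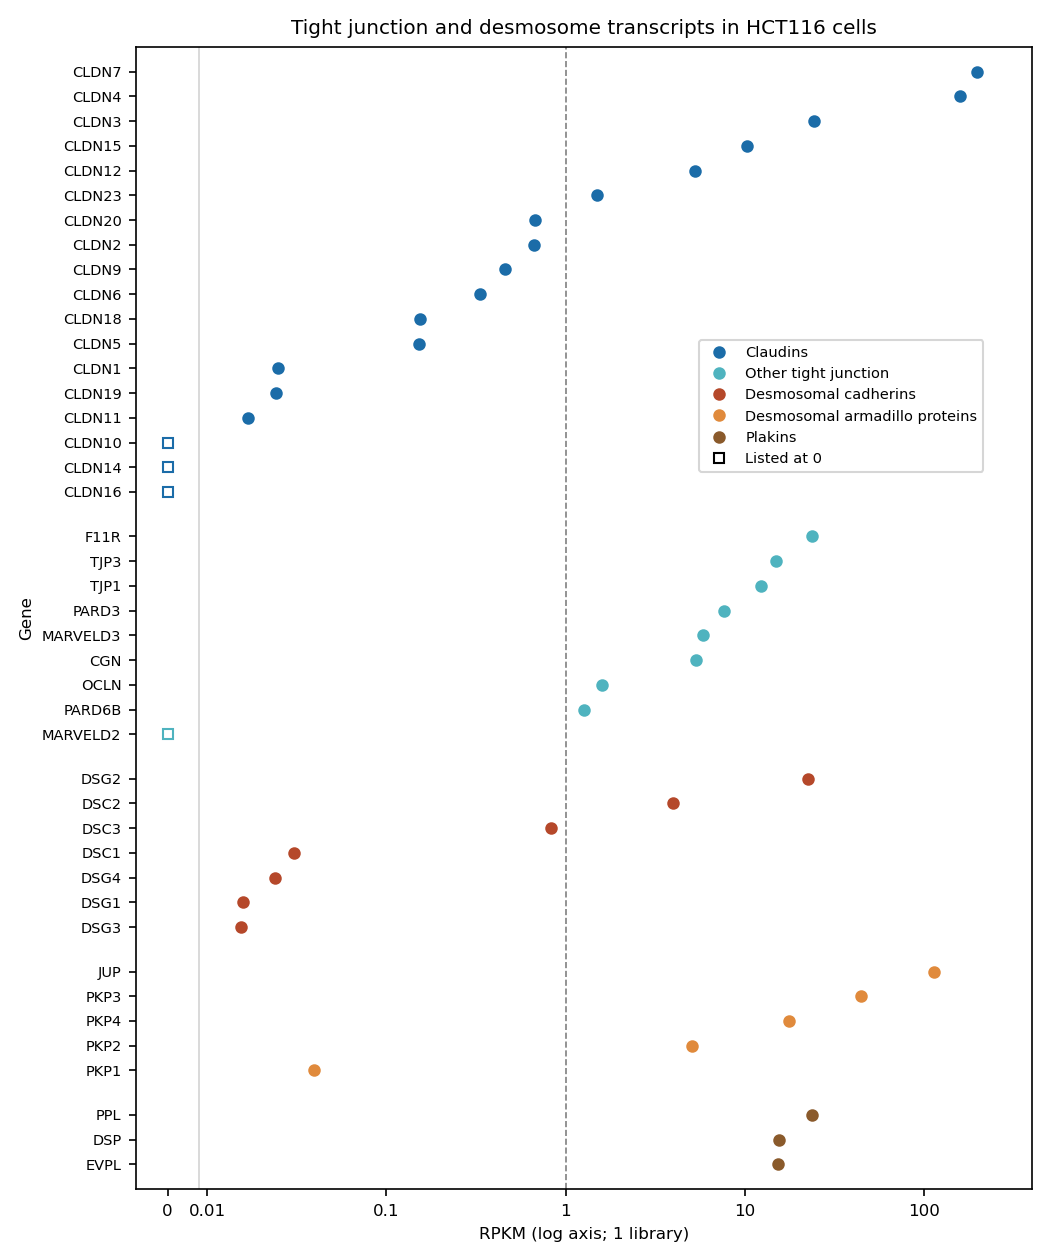
RPKM of each of the 42 junction genes in the 1 RNA library, on a log axis, grouped by protein class and sorted within it. Filled circles are values above 0, open squares are genes listed at 0, and the dashed line marks 1 RPKM. CLDN7, CLDN4 and JUP lie above 100 RPKM, and the desmosomal cadherins run from 0.0155 to 22.6 RPKM.

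By junction type, tight junction genes had a lower median than desmosome genes. The 27 tight junction genes had a median of 1.26 RPKM, with 14 at or above 1 RPKM (51.9%), and the 15 desmosome genes a median of 5.05 RPKM, with 9 at or above 1 RPKM (60.0%). Both shares were near the 57.0% of all genes. Set among all genes, the median tight junction gene stood above 45.3% of them and the median desmosome gene above 64.2%. The difference of medians, tight junction minus desmosome, was -1.42 on the log2(RPKM + 1) scale. Of the 13 tight junction genes below 1 RPKM, 12 were claudins. The 18 claudins had a median of 0.397 RPKM with 6 at or above 1 RPKM (33.3%), and the 9 other tight junction genes a median of 5.87 RPKM with 8 at or above 1 RPKM (88.9%). The median of these 9 genes lay above the 5.05 RPKM of all 15 desmosome genes, a set that keeps the low desmosomal cadherins. Of the 6 desmosome genes below 1 RPKM, 5 were cadherins, a class with a median of 0.0304 RPKM over 7 genes and 2 at or above 1 RPKM (28.6%). The 5 armadillo genes had a median of 17.6 RPKM and the 3 plakin genes 15.5 RPKM. Both medians lay above the 5.87 RPKM of the 9 other tight junction genes.

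**Figure D2:**
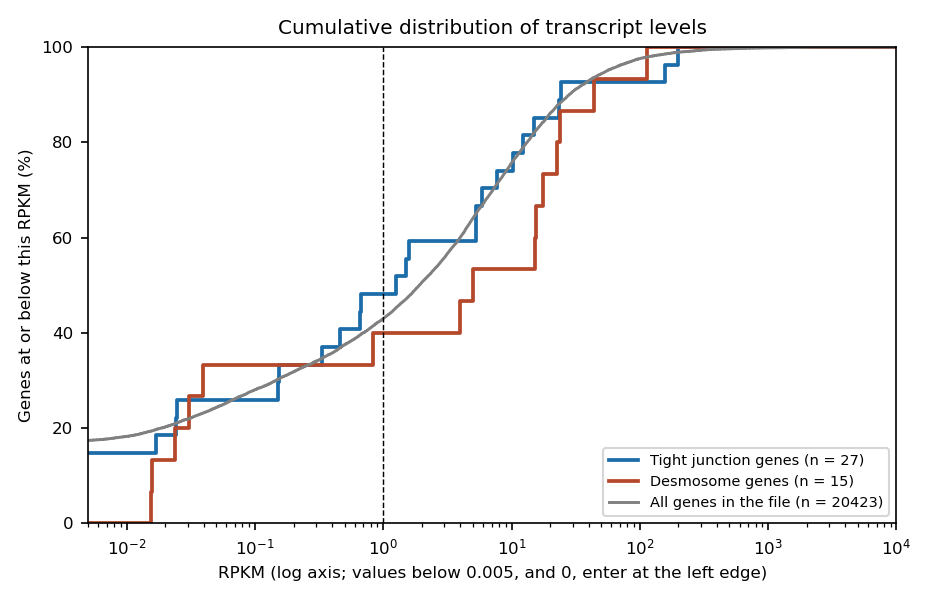
Cumulative share of genes (%) at or below each RPKM on a log axis, for tight junction genes (27), desmosome genes (15) and all 20423 genes. The tight junction curve runs near that of all genes, with 51.9% against 57.0% at or above 1 RPKM, and 46.7% of the desmosome genes reach 10 RPKM against 24.4% of all genes.

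Claudin RNA in these cells was mostly that of CLDN7 and CLDN4. CLDN7, a claudin of colonic epithelium, stood at 198 RPKM and ranked 226th from the top of all genes. CLDN4, which tightens epithelia against sodium, stood at 158 RPKM and ranked 299th. The CLDN7 level was 1.25 times that of CLDN4, a difference for which 1 library gives no measure of error. Together they made up 89.0% of the summed RPKM of the 18 claudins. CLDN3, a barrier claudin that like CLDN4 binds the enterotoxin of Clostridium perfringens, followed at 24.3 RPKM, 8.15 times below CLDN7, and with it the share came to 95.1%. Then came CLDN15, which forms pores for cations, at 10.2 RPKM and CLDN12 at 5.30 RPKM. CLDN23 stood at 1.49 RPKM.

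The claudins at or above 1 RPKM all belonged to a list of 9 claudins known from the gut lining. Of the 8 of that list in the file, 6 reached 1 RPKM (75.0%), against 57.0% of all genes. The others were CLDN2, the cation pore of leaky epithelia, at 0.661 RPKM, and CLDN1, a barrier claudin of skin and many other epithelia, at 0.0249 RPKM. CLDN15 was thus the higher of these cation-pore claudins, at 15.5 times the CLDN2 level. CLDN1 corresponds to about 0.580 reads per kilobase at the estimated depth, so its level is set by very few reads. Of 11 claudins known chiefly from other tissues, 10 were in the file and none reached 1 RPKM, against 57.0% of all genes. Their values ran from 0 to the 0.675 RPKM of CLDN20. Both claudin lists were drawn with earlier results of these data known, so the split between them is no independent evidence of tissue type. CLDN9 and CLDN6, neighbours on chromosome 16, stood at 0.460 and 0.333 RPKM, next to TNFRSF12A at 126 RPKM. They resemble each other in sequence, and nothing in the labels or the deposited readme says how reads that match both were counted, so the split between them is uncertain. CLDN18 of stomach and lung and CLDN5 of blood vessels stood at 0.153 and 0.152 RPKM. CLDN19 of the kidney lay at 0.0241 RPKM and CLDN11 of myelin at 0.0168 RPKM. CLDN10, CLDN14 and CLDN16 were listed at 0.

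The promoters of these claudins are shown because they set the highest members beside a neighbour and beside one near 0. Each sequence is the 250 bases before a RefSeq transcript start in GRCh38.p14, written 5′ to 3′ on the strand of the gene. The deposited values rest on hg18, so these positions were not compared with the SP1 peaks or the insertions of the study. Capitals mark GC boxes (GGGCGG, or CCGCCC on the other strand), the core that SP1 binds, and E-boxes (CAGGTG or CACCTG), which repressors of the SNAI and ZEB families bind. CLDN7 has 2 starts in the table, at chr17:7262479-7262728 and chr17:7263214-7263463, both on the minus strand. CLDN4 is at chr7:73830746-73830995 on the plus strand, CLDN3 at chr7:73770271-73770520 on the minus strand and CLDN1 at chr3:190322447-190322696 on the minus strand.
CLDN7, downstream start: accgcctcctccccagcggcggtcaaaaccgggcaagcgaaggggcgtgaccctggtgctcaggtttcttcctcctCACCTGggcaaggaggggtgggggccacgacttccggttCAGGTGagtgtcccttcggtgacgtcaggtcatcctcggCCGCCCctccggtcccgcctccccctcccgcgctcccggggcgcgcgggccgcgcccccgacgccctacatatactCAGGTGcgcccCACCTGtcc
CLDN7, upstream start: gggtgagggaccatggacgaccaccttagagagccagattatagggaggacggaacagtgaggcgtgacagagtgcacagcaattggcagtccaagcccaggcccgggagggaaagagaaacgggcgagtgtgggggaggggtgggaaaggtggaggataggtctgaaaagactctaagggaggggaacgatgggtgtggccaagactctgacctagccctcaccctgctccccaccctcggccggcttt
CLDN4: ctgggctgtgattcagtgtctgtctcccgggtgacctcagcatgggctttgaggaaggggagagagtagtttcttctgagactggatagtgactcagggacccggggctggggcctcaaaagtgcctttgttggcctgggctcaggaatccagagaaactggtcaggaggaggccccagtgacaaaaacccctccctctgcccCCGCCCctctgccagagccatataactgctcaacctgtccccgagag
CLDN3: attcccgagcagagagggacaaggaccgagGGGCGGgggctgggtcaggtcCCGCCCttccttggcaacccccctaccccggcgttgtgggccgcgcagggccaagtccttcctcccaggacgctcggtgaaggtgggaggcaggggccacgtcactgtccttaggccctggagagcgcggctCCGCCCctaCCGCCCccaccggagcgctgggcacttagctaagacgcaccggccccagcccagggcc
CLDN1: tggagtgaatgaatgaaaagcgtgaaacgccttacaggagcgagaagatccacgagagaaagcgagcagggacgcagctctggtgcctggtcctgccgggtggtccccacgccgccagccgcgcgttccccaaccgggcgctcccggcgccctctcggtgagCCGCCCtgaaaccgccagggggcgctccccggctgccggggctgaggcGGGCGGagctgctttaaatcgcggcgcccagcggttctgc

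The CLDN7 window at the downstream start held 4 E-boxes and 1 GC box, and that at the upstream start held neither. CLDN4 held 1 GC box and CLDN3 held 4, with no E-box in either. The 2 genes lie side by side on chromosome 7 and differed 6.51-fold in level, CLDN4 over CLDN3. Their windows also differed in CpG content: the observed over expected CpG ratio was 0.185 for CLDN4 and 0.594 for CLDN3. CLDN1, near 0 in these cells, had 2 GC boxes and the highest such ratio of the 5 windows, 0.948. A GC-rich window with GC boxes thus stood in front of a gene with few reads as well as in front of genes with many.

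Among the 44 genes, F11R was the highest of the transmembrane tight junction genes other than claudins. F11R, which encodes the adhesion molecule JAM-A, stood at 23.6 RPKM, while its relatives JAM3 and JAM2, which are not among the 44 genes, stood at 0.281 RPKM and at a listed 0. MARVELD3 stood at 5.87 RPKM. OCLN, the gene of occludin, stood at 1.59 RPKM, and CLDN7 was 124 times and CLDN4 99.3 times higher. RefSeq lists a pseudogene of OCLN on the same chromosome, OCLNP1, so reads from OCLN may have been split and its value is uncertain. MARVELD2, the gene of tricellulin at the corners where cells meet, was listed at 0. Its neighbours on chromosome 5, RAD17 and TAF9, were listed at 0 as well, while CDK7, farther along, stood at 21.1 RPKM. Whether the 0 of MARVELD2 is a true absence of reads cannot be told from the file.

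Among the 44 genes, RNA of those for the cytoplasmic plaque of the tight junction ran from 1.26 to 14.9 RPKM. TJP3 and TJP1, which encode the zonula occludens scaffolds ZO-3 and ZO-1, stood at 14.9 and 12.3 RPKM. The TJP3 level was 1.21 times that of TJP1. CGN, the gene of cingulin, which links the junction to actomyosin, stood at 5.33 RPKM, and its relative CGNL1 at 0.594 RPKM. PARD3, a scaffold of the polarity complex, stood at 7.66 RPKM and its partner PARD6B at 1.26 RPKM. The other PAR6 genes, PARD6A and PARD6G, were higher than PARD6B, at 5.37 and 3.63 RPKM.

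Desmosomal cadherin RNA in these cells was mostly that of the isoforms known from simple epithelia. DSG2, the desmoglein of simple epithelia, stood at 22.6 RPKM and held 99.8% of the summed desmoglein RPKM. DSC2, its desmocollin counterpart, stood at 3.97 RPKM and held 82.2% of the summed desmocollin RPKM. DSC3 took 17.2% at 0.828 RPKM. DSG2 was 5.70 times higher than DSC2. The desmogleins of skin, DSG1 and DSG3, and that of hair, DSG4, stood at 0.0158, 0.0155 and 0.0238 RPKM, and DSC1 at 0.0304 RPKM. These 4 values correspond to between 0.360 and 0.709 reads per kilobase at the estimated depth. On a list of 3 desmosome genes of simple epithelia (DSG2, DSC2 and PKP2) 3 reached 1 RPKM, and on a list of 6 of stratified epithelia (DSG1, DSG3, DSG4, DSC1, DSC3 and PKP1) none did, against 57.0% of all genes. The highest of the 6 was DSC3. These lists were drawn with earlier results of these data known and leave out genes of stratified epithelia that did reach 1 RPKM, namely PPL at 23.8, EVPL at 15.2 and CDSN, which is not among the 44 genes, at 1.21 RPKM.

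**Figure D3:**
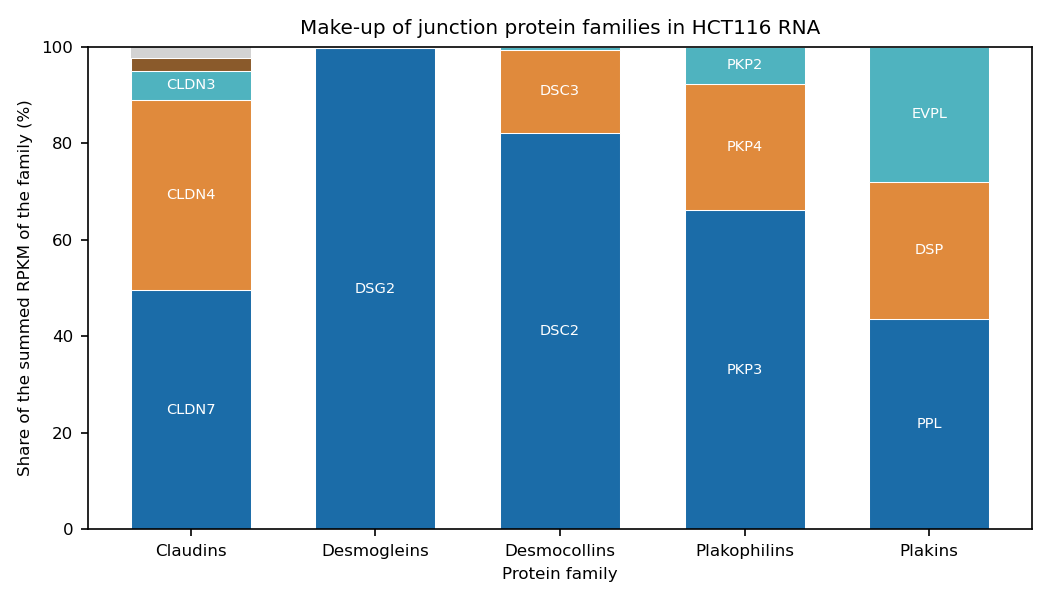
Share (%) of the summed RPKM of each family held by its members in the 1 RNA library. Segments are the 4 highest members in order from the bottom, the brown claudin segment is CLDN15 and the grey one all remaining claudins. CLDN7 and CLDN4 hold 89.0% of claudin RPKM, and DSG2 holds 99.8% of desmoglein RPKM.

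The 7 desmosomal cadherin genes form 1 cluster on chromosome 18, and the members above 1 RPKM were not next to each other. In chromosome order the genes are DSC3, DSC2, DSC1, DSG1, DSG4, DSG3 and DSG2, with values of 0.828, 3.97, 0.0304, 0.0158, 0.0238, 0.0155 and 22.6 RPKM. The 4 inner genes from DSC1 to DSG3 ran from 0.0155 to 0.0304 RPKM, with the higher genes at both ends. Beyond the cluster, CDH2, the gene of N-cadherin, stood at 0.0491 RPKM on the DSC3 side. TTR on the DSG2 side was listed at 0. DSG3 and DSG2 are direct neighbours at the extremes of the range, and their promoters are shown for that reason. The DSG2 window is at chr18:31497927-31498176 and the DSG3 window at chr18:31447491-31447740, both in GRCh38.p14 on the plus strand, with the same capitals as above.
DSG2: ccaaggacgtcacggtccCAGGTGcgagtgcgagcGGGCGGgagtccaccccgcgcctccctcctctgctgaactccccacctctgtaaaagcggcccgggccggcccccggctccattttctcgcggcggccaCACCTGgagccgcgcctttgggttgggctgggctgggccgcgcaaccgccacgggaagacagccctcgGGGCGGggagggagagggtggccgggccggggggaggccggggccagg
DSG3: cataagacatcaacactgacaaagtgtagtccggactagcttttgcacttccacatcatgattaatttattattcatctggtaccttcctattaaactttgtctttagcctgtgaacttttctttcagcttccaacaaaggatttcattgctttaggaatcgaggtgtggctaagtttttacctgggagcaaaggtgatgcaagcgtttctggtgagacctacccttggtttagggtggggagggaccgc

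The DSG2 window held 2 GC boxes and 2 E-boxes with 75.2% G and C, and the DSG3 window held neither motif with 42.8% G and C. The observed over expected CpG ratio was 0.738 for DSG2 and 0.350 for DSG3.

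**Figure D4:**
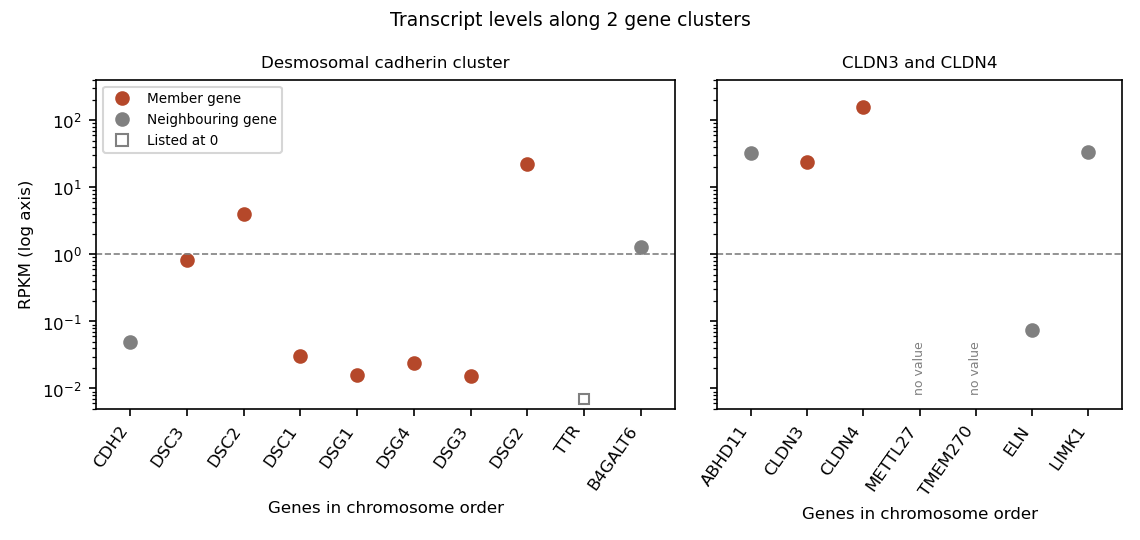
RPKM on a log axis of genes in their RefSeq order along the desmosomal cadherin cluster of chromosome 18 and around CLDN3 and CLDN4 on chromosome 7. Red circles are junction genes, grey circles neighbours, open squares genes listed at 0, and neighbours with no value under that symbol are written as such. DSC2 and DSG2 lie above the dashed line at 1 RPKM, with 4 genes between 0.0155 and 0.0304 RPKM between them.

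Inside the cell, plakoglobin was the most abundant desmosome transcript. JUP, the gene of plakoglobin, stood at 114 RPKM, above 97.9% of all genes, and held 63.0% of the summed RPKM of the armadillo members. Plakoglobin also serves adherens junctions. Its RNA was 2.16 times that of CTNNB1, the gene of its relative β-catenin, at 53.0 RPKM. JUP was 5.05 times higher than DSG2 and 7.37 times higher than DSP. Among the plakophilins, PKP3 stood at 44.3 RPKM and held 66.1% of their sum, PKP4 at 17.6 RPKM held 26.3% and PKP2 at 5.05 RPKM held 7.54%. PKP1, the plakophilin of stratified epithelia, stood at 0.0396 RPKM. PKP3 was thus 8.77 times higher than PKP2.

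The plakin genes lay close together. DSP, the gene of desmoplakin, stood at 15.5 RPKM. PPL and EVPL, which encode periplakin and envoplakin and are best known from the cornified envelope of skin, stood at 23.8 and 15.2 RPKM. Both were thus high in cells in which the stratified cadherins and PKP1 were below 1 RPKM. PPL was 1.54 times higher than DSP.

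Genes that work with these junctions but are not among the 44 are given for comparison. Of 21 further tight junction partners in the file, 14 reached 1 RPKM (66.7%), against 57.0% of all genes, with a median of 2.32 RPKM. The list ran from JAM2 and MPDZ, both listed at 0, through AMOT at 0.726 RPKM to genes above 100 RPKM. Among the higher ones were LSR, which recruits tricellulin to cell corners, at 127 RPKM, the polarity gene CRB3 at 18.2 RPKM and the kinase gene PRKCZ at 17.7 RPKM. PERP, a membrane protein of desmosomes, stood at 25.3 RPKM. Adherens junction genes were higher, with 10 of 11 at or above 1 RPKM (90.9%), against 57.0% of all genes. Their median of 20.2 RPKM lies above the medians of the tight junction and desmosome genes. CTNNA1, the gene of α-catenin, stood at 93.8 RPKM, and CDH1, the gene of E-cadherin, at 17.0 RPKM, so that DSG2 was 1.33 times the level of CDH1.

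Promoter motifs were set against expression for the junction genes with a promoter in the RefSeq table. Of the 44 genes 30 had one, and 29 of these also had a value, with 45 windows in all. Coverage was uneven, with 14 of the 23 genes at or above 1 RPKM and 15 of the 19 below it. PKP3, PPL and F11R are among the higher genes without a promoter in the table. Of the genes at or above 1 RPKM, 13 of 14 (92.9%) had a GC box in the 250 bases before a start, and of those below 1 RPKM 7 of 15 (46.7%). Over all genes with a promoter and a value these shares were 77.7% of 7879 genes at or above 1 RPKM and 45.5% of 4755 below it, so the junction genes followed the direction seen in genes at large. E-boxes were found in 8 of 14 (57.1%) of the higher and 3 of 15 (20.0%) of the lower junction genes, against 21.2% and 22.6% of all genes. Counted over windows, since a gene with several starts has more chances, E-boxes were in 39.1% of 23 windows of the higher and 13.6% of 22 windows of the lower junction genes, against 16.1% and 18.0% of all windows. Those 8 genes were CLDN7, JUP, DSG2, DSP, TJP3, TJP1, DSC2 and OCLN. The box TATAAA, searched on both strands like the others, was in none of the 29, against 10.7% of all genes. Median observed over expected CpG was 0.644 for the higher and 0.393 for the lower junction genes, against 0.814 and 0.449 for all genes. These are matches of letters, counted in few genes and without a test.

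**Figure D5:**
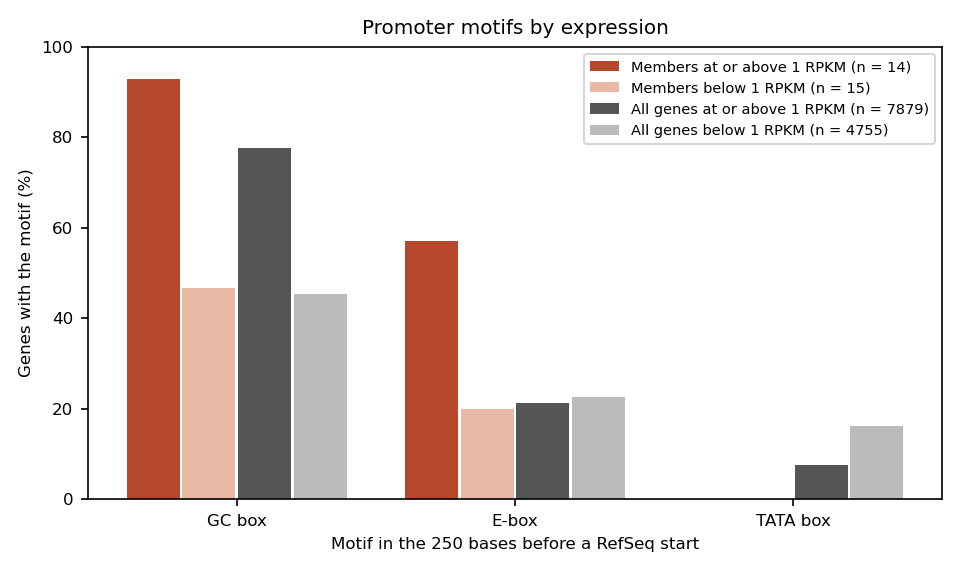
Share of genes (%) with a GC box, an E-box or a TATA box in the 250 bases before any of their RefSeq starts. Bars are junction genes at or above 1 RPKM (14), junction genes below it (15), and all genes at or above (7879) and below 1 RPKM (4755). The E-box share is 57.1% in the first group and lies between 20.0% and 22.6% in the other 3.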

How the data were processed

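Per the deposited readme, the authors aligned RNA-seq reads of HCT116 cells to hg18 with TopHat and computed RPKM per RefSeq gene with Cufflinks, whose version the submitters' processing notes give as 1.1.0. The sources used here do not give the annotation release, the handling of reads with several matches or the strand. RPKM was used as deposited, and no symbol was listed more than once. The piggyBac and ChIP-seq files were not used, since no hg18 gene positions were at hand. Each gene was set against all 20423 genes by the percentage of genes with a lower value. A gene was called expressed at 1 RPKM, and log2 values have a pseudocount of 1 RPKM. There was 1 library, so no test was run. The members and lists were chosen with earlier results of these data known. Every member at or above 1 RPKM is named, as is every one listed at 0, and other genes come from lists of junction partners, regulators and markers or are chromosome neighbours. Those neighbours and the printed promoters were chosen after their values were seen. Promoters are from RefSeq (GRCh38.p14). The motif search was tested on motifs planted in simulated sequences made only of C, which do not resemble promoters. The planned protein features of claudins were not computed. The gap junction list and some genes outside the 44 are not reported here. The calculations used Python 3.11.15, pandas 2.3.3 and numpy 2.4.6.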

Additional observations from a re-analysis of the deposited data

How the results depend on the processing

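No paired analysis was possible because the values come from 1 RNA library and no test, and for the same reason no replicate could be left out. At thresholds from 0.5 to 5 RPKM the number of expressed junction genes was 26 to 19, against 23 at 1 RPKM. At 10 RPKM it was 14 in all and 3 for the other tight junction genes, against 8 at 1 RPKM. Without genes listed at 0, 60.5% of the junction genes and 68.4% of all genes reached 1 RPKM, and the median tight junction and desmosome gene stood above 37.3% and 57.1% of genes. The difference of medians, tight junction minus desmosome, was negative in the 6 alternatives run. It was -1.92 and -1.99 with pseudocounts of 0.1 and 0.01 RPKM, -1.22 without genes at 0, -1.85 without PARD3 and PARD6B, -1.14 without PPL and EVPL and -1.14 without PKP4 and JUP. The cause of these shifts was not tested. None of the 6 alternatives left out claudins, which are 18 of the 27 tight junction genes. The 9 other tight junction genes had a median of 2.78 on the log2(RPKM + 1) scale, against 2.60 for desmosome genes. The sign thus turned positive without the claudins when all 15 desmosome genes were kept. Leaving out the desmosomal cadherins as well was not run. The classes that would remain had medians of 5.87 RPKM (other tight junction), 17.6 RPKM (armadillo) and 15.5 RPKM (plakin). Using the highest row of each symbol changed nothing, since each has 1 row. Other searches of the promoters were added after the data had been seen. In the whole 300-base window of the table, E-boxes were in 64.3% and GC boxes in 92.9% of the higher junction genes. All genes at or above 1 RPKM had 24.1% and 79.8%. With each 250-base window counted, the shares were 39.1% and 78.3%, against 16.1% and 65.7% for all genes at or above 1 RPKM. Levels near 0 rest on very few reads.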

Other observations

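Regulators of epithelial junction genes were mixed in the same library. Of a list of 10, 4 reached 1 RPKM (40.0%), against 57.0% of all genes. They were SNAI1, a repressor of E-cadherin, at 13.1 RPKM, OVOL1 at 7.70 RPKM, and the epithelial activators GRHL2 and GRHL1 at 4.57 and 2.95 RPKM. The repressors of the same E-box, SNAI2, ZEB1 and ZEB2, stood at 0.205, 0.292 and 0.0143 RPKM, and TWIST1 at 0.631 RPKM. GRHL3 and OVOL2 stood at 0.697 and 0.717 RPKM.

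Among the tight junction partners outside the 44 genes, CSDA, the gene of a transcription factor that binds ZO-1, was the highest at 158 RPKM, close to the 158 RPKM of CLDN4. SYMPK, the gene of symplekin, stood at 36.1 RPKM. The coxsackievirus receptor gene CXADR stood at 2.32 RPKM. CDSN, a desmosome-linked gene of skin, stood at 1.21 RPKM.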
